A study of Sus scrofa with 120 samples.

Results

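The libraries compared are the 8 of 120 in the series that came from pig chondrocytes that received no siRNA and were sequenced 3 h after the onset of stimulation. They were picked by title alone: 4 from constructs compressed beyond the physiologic range and 4 from vehicle controls. The cells were primary chondrocytes of femoral cartilage, described as wild type, cast in 2% agarose to form cartilage-like constructs. Compressed constructs received 1 round of slow unconfined compression to 80% deformation at 1.9% deformation per min. Vehicle constructs were left free swelling in medium with DMSO diluted 1 in 1000, and the labels do not say whether compressed constructs also received DMSO. The compression and the handling that came with it cannot be told apart in this design. Comparison groups of 4 libraries each came from cells given a non-targeting siRNA (siNTC) or siRNAs against PIEZO1 (siPIEZO1), from non-transfected constructs at 9 h, and from non-transfected constructs given Yoda1, an agonist of the PIEZO1 channel, at 5 uM. The 5 uM dose is that of the series text, whereas the sample labels give the same figure in another unit. Whether a group's 4 libraries are from different animals or cultures is not in the labels. Every p-value reflects the spread among libraries, pooled over all groups in the fit (36 libraries at 3 h), and that spread may be technical.

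Chondrocytes are the resident cells of cartilage, where they build and turn over a matrix of type II collagen and aggrecan. They sense load through integrins, the primary cilium and cation channels such as TRPV4 and PIEZO1, and calcium entry and ERK signalling then act on early response genes. Overload of cartilage is a known trigger of prostaglandin, chemokine and protease expression and is studied as a model of joint injury. Because the constructs were measured in bulk, fewer cells of a type and less RNA per cell cannot be told apart.

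Of the chondrocyte markers, COL2A1 and COMP were abundant in all 8 libraries. COL2A1 mRNA was at 5873 to 8360.0 CPM in vehicle and 4918 to 6132 CPM in compressed libraries (CPM, counts scaled for library size). COMP mRNA was at 20580.0 to 23790.0 CPM in vehicle and 13670.0 to 23120.0 CPM in compressed libraries. The other markers had lower mean levels, down to MATN3 at 3.85 CPM in vehicle and 3.43 CPM in compressed libraries. Summed levels were 36.9 to 55.4 CPM for 8 tested leukocyte markers and 80.6 to 98.1 CPM for 9 endothelial markers, and none of the 25 tested markers of leukocytes, endothelium, fat and red cells, or muscle and nerve passed the test. Of 12 fibroblast and synovial markers, whose sum was 2218 to 2647 CPM, the growth factor receptor gene PDGFRA alone passed (log2 fold change 0.47). PDGFRA did not pass without vehicle replicates 1, 2 or 3 or compression replicates 1, 2, 3 or 4, each left out alone (adjusted p 0.0524 to 0.149). The libraries held 43010839 to 52442405 counts. On the first principal component, which held 37.8% of the variance, vehicle replicate 4 lay at -2.07, between the other vehicle libraries (-27.4 to -17.3) and the compressed ones (13.6 to 19.0). Ribosomal RNA genes took 0.0894% to 0.146% of counts in vehicle and 0.15% to 0.196% in compressed libraries, with no overlap. Long genes were higher relative to short genes in the compressed libraries. For this, each gene's log2 level was taken as a deviation from its mean over the 8 libraries. The median deviation in the top of 3 equal span classes minus that in the bottom class was then taken per library. It was 0.0647 to 0.106 in compressed and -0.17 to 0.0325 in vehicle libraries. In RefSeq Sscrofa11.1 the median span was 51.5 kb for raised and 12.3 kb for lowered genes, with a span for 93.6% and 91.4% of them. Only 73.5% of all genes tested had a span. Among genes with a span, 8.02% of the top class rose and 1.09% fell (median log2 fold change 0.0861). In the bottom class 2.94% rose and 4.59% fell (median -0.137). An offset for gene span was run as an alternative. The part of the ribosomal share in the results was not tested.

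**Figure D1:**
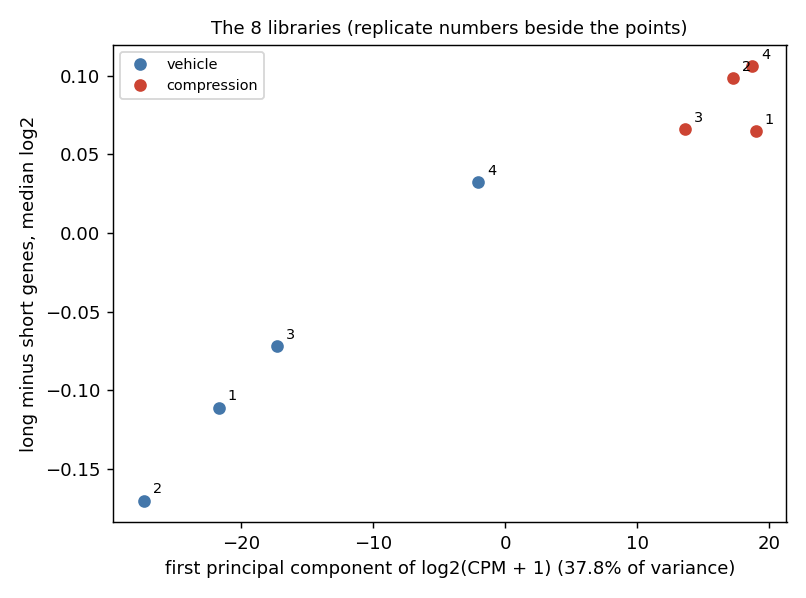
Each point is 1 of the 8 libraries at 3 h, with its replicate number. The x axis is the first principal component of log2(CPM + 1). The y axis is the median of long genes minus that of short genes, in log2 deviations from each gene's mean over the 8 libraries. The 4 compressed libraries lie at 13.6 to 19.0 on x, and vehicle replicate 4 lies nearest to them at -2.07.

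Compression changed 1149 of 18330 genes tested (6.27%), as called by the quasi-likelihood test of edgeR at a Benjamini-Hochberg adjusted p threshold of 0.05. Of these, 766 were higher (4.18%) and 383 lower (2.09%) in compressed constructs, and 183 (0.998%) differed by at least 2-fold, 118 of them higher (0.644%). The count changed when single libraries were left out. It was 659, 526, 728 and 1583 without vehicle replicates 1, 2, 3 and 4. Without compression replicates 1, 2, 3 and 4 it was 815, 805, 925 and 720. Each of these fits had 1 library fewer and, with the filter reapplied, tested 19068 to 19091 genes. The part of the filter in these counts was not tested. Among the called genes described below, the libraries of the groups overlapped in CXCL2, NFKBIA, NOS2, PLAU, COL2A1, HAPLN1, MEF2C, PLK1, CYP1A1, PER2, NR1D1 and ATP2B4. With gene span as an offset 1009 genes were called, 874 of them (76.1%) among the 1149. For comparison with the gene lists below, the median log2 fold change of all genes tested was -0.0366, and the libraries of the groups did not overlap for 2398 genes (13.1%). Called genes were better expressed: the median vehicle level was 33.9 CPM for raised and 20.6 CPM for lowered genes, against 3.98 CPM for all genes tested. The lists were not matched to all genes by level, and the part of level in their shares was not tested.

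Inflammatory mediators made up the largest list of raised genes. Of 41 tested genes of NF-kB signalling and inflammation, 20 rose and 1 fell, and the list's median log2 fold change was 0.547. PTGS2, the inducible cyclooxygenase of prostaglandin synthesis (RefSeq Sscrofa11.1 chromosome 9, 127850164 to 127858866), measured 50.4, 49.1, 55.5 and 71.9 CPM in the vehicle libraries and 487, 418, 277 and 206 CPM in the compressed libraries. All 4 compressed libraries lay above all 4 vehicle libraries, and PTGS2 rose (log2 fold change 2.61 ± 0.19 (SE), adjusted p = 1.03e-11). PTGES, a prostaglandin E synthase, did not pass (log2 fold change -0.05 ± 0.10 (SE), adjusted p = 0.868). Neutrophil-attracting chemokines rose: AMCF-II measured 5.33, 2.94, 2.57 and 3.50 CPM in the vehicle libraries and 55.2, 60.9, 19.2 and 11.04 CPM in the compressed libraries, and its change was 3.35 ± 0.39 on the log2 scale (adjusted p = 1.55e-07). CXCL8 measured 5.71, 3.63, 3.96 and 5.49 CPM in the vehicle libraries and 37.4, 34.6, 13.8 and 9.89 CPM in the compressed libraries (log2 fold change 2.35 ± 0.37 (SE), adjusted p = 4.15e-05). In PTGS2, AMCF-II, CXCL8, CXCL2 and NOS2, compression replicates 1 and 2 were higher than replicates 3 and 4. The same order held for TNFAIP3, MMP3, NR4A3, FOSB and SPRY2 below, but not for INHBA, PTHLH or KLF9. The chemokines CXCL2 (5.22 to 28.3 CPM, log2 fold change 2.44), CCL20 (5.73 to 22.2 CPM, 1.95) and CCL2 (9.15 to 30.2 CPM, 1.72) rose as well. CXCL2 measured 5.86, 6.67, 5.36 and 3.00 CPM in the vehicle libraries and 46.5, 48.5, 12.2 and 6.04 CPM in the compressed libraries, and the groups overlapped. NOS2, the inducible nitric oxide synthase, rose by 1.62 and CSF2, a myeloid growth factor, by 3.50 on the log2 scale from a low level (0.094 to 1.08 CPM).

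Some of the inhibitors of NF-kB signalling in the list rose, and others did not pass. TNFAIP3, which encodes the ubiquitin-editing inhibitor A20, measured 16.9, 21.2, 20.0 and 21.1 CPM in the vehicle libraries and 61.9, 56.7, 39.5 and 39.5 CPM in the compressed libraries (log2 fold change 1.32 ± 0.14 (SE), adjusted p = 1.36e-08). Other inhibitors and regulators that rose were NFKBIA (1.38), NFKBIZ (1.25) and the apoptosis inhibitor BIRC3 (0.96), in log2 fold changes. Receptors and decoys rose too: TLR4 (0.95), the decoy receptor IL1R2 (0.91) and TNFRSF11B, which encodes osteoprotegerin (0.91). The LIF cytokine gene rose from 43.6 to 105 CPM (1.27). Against these, SOCS3, a feedback inhibitor of cytokine receptors, fell from 5.24 to 2.47 CPM (log2 fold change -1.08 ± 0.21 (SE), adjusted p = 0.000845). LCN2, an iron-binding acute phase gene, did not pass (-0.30, adjusted p = 0.105). NFKBIA did not pass without vehicle replicate 1 or compression replicate 2, each left out alone (adjusted p 0.05 to 0.0568). CSF2 did not pass with limma-voom (adjusted p = 0.0742). LCN2 passed without vehicle replicate 4 (log2 fold change -0.41, adjusted p = 0.0134).

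**Figure D2:**
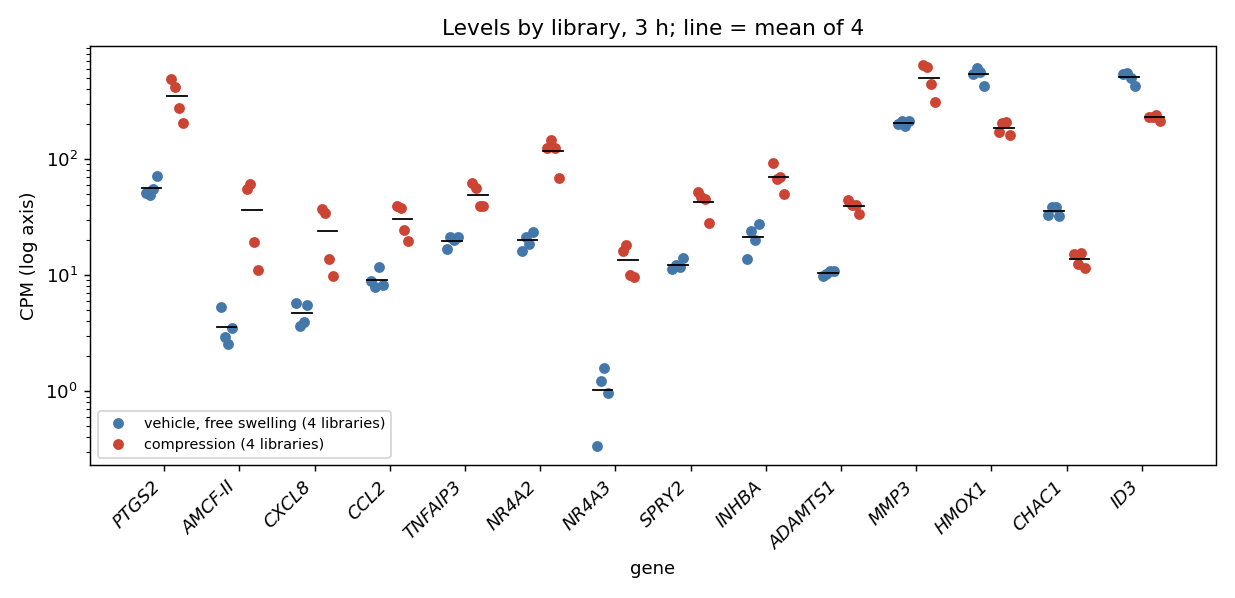
Points are single libraries (blue vehicle, red compression), lines are means of 4, and the y axis is CPM on a log scale, for 14 of the genes described. PTGS2 spans 49.1 to 71.9 CPM in vehicle and 206 to 487 CPM after compression, and HMOX1, CHAC1 and ID3 lie lower after compression.

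Of 29 tested immediate early genes, 9 rose and 1 fell, with a median log2 fold change of 0.292. The orphan nuclear receptors NR4A1, NR4A2 and NR4A3, which act as transcription factors without a known ligand, all rose. NR4A2 measured 16.1, 21.2, 18.6 and 23.4 CPM in the vehicle libraries and 125, 146, 125 and 68.2 CPM in the compressed libraries (log2 fold change 2.55 ± 0.21 (SE), adjusted p = 1.12e-10). NR4A3 measured 0.338, 1.22, 1.58 and 0.961 CPM in the vehicle libraries and 16.1, 18.2, 10.1 and 9.70 CPM in the compressed libraries (log2 fold change 3.71 ± 0.48 (SE), adjusted p = 8.85e-07), and NR4A1 rose from 1.56 to 5.91 CPM (1.91). The AP-1 member FOSB rose (2.05, 2.31, 1.84 and 2.34 CPM in the vehicle libraries and 13.02, 12.0, 10.6 and 5.32 CPM in the compressed libraries; log2 fold change 2.26), as did the Kruppel-like factor KLF4 (1.11) and the phosphatase DUSP5 (1.48). FOS, by contrast, measured 214, 236, 239 and 301 CPM in the vehicle libraries and 235, 212, 248 and 171 CPM in the compressed libraries (log2 fold change -0.19 ± 0.13 (SE), adjusted p = 0.451), and EGR1 (0.0024, adjusted p = 0.997) did not pass either; EGR1 changed sign in some alternatives. The mRNA-decay factor ZFP36 fell (log2 fold change -1.22 ± 0.17 (SE), adjusted p = 6.03e-06). Genes with strong changes outside the lists included APOLD1, an early response gene of endothelial cells (log2 fold change 2.84), and RND1, a small GTPase (1.88).

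Of 26 tested genes of ERK feedback and of EGF and FGF ligands, 9 rose, 2 fell and the others did not pass (median log2 fold change 0.488). SPRY2, a feedback inhibitor of receptor tyrosine kinases, measured 11.2, 12.2, 11.8 and 13.9 CPM in the vehicle libraries and 51.8, 46.7, 45.3 and 28.0 CPM in the compressed libraries (log2 fold change 1.81 ± 0.16 (SE), adjusted p = 6.34e-10). The ERK phosphatases DUSP4 (1.21) and DUSP6 (0.91) rose. Of the ligands, FGF1 rose from 214 to 408 CPM (0.94), FGF2 from 42.9 to 75.3 CPM (0.81) and CCN2 from 355 to 506 CPM (0.51). The receptor FGFR3 (-0.67), a brake on chondrocyte proliferation, and the ligand PDGFA (-0.98) fell. PDGFA did not pass without vehicle replicates 2, 3 or 4 or compression replicates 1, 2 or 4, each left out alone (adjusted p 0.0528 to 0.0868) and with limma-voom (adjusted p = 0.0571).

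Of 34 tested genes of the TGF-beta, activin and BMP pathways, 10 rose and 2 fell (median log2 fold change 0.277). INHBA, the activin A subunit, measured 13.8, 24.1, 20.1 and 27.7 CPM in the vehicle libraries and 92.5, 67.2, 70.5 and 49.8 CPM in the compressed libraries (log2 fold change 1.71 ± 0.18 (SE), adjusted p = 1.23e-08). The ligand BMP2 rose (7.27 to 17.1 CPM, 1.23), as did TGFB2 (0.35), and the signal transducer SMAD3 rose from 19.8 to 37.0 CPM (0.90). ID3, a direct target of BMP signalling, fell: it measured 537, 552, 501 and 428 CPM in the vehicle libraries and 231, 229, 240.1 and 212 CPM in the compressed libraries (log2 fold change -1.15 ± 0.11 (SE), adjusted p = 1.96e-09). PMEPA1, a well known target of TGF-beta, did not pass (0.10, adjusted p = 0.596). TGFB2 did not pass without vehicle replicates 1 or 2 or compression replicates 1 or 2, each left out alone (adjusted p 0.0592 to 0.083) and with gene span as an offset (adjusted p = 0.098).

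Lists of genes tied to calcium, the cytoskeleton and cell shape also held called genes. Of 20 targets of calcium, calcineurin and CREB, 5 rose and 0 fell (median 0.230). They were NR4A1, the cAMP phosphodiesterases PDE4B (24.8, 22.7, 23.6 and 27.3 CPM in the vehicle libraries and 70.6, 87.2, 68.3 and 50.5 CPM in the compressed libraries; log2 fold change 1.49 ± 0.14 (SE), adjusted p = 1.96e-09) and PDE4D (1.28), the calcineurin inhibitor RCAN1 (0.40) and the transcription factor CREB5 (0.40). Of 39 SRF, actin and cytoskeleton genes, 5 rose and 1 fell (median -0.0324): the GTPases RHOB (1.22) and RND3 (0.36), the focal adhesion protein VCL (0.72), TUBB6 (0.37) and CORO1C (0.30) rose, and profilin 1, PFN1 (-0.31), fell. ACTG1 (0.15) and TPM1 (-0.01) did not pass, and ACTG1 passed with gene span as an offset (log2 fold change 0.30, adjusted p = 0.00988). Of 25 genes in a list of YAP-TAZ targets and pathway members, 4 rose and 0 fell (median 0.212). The 4 were CCN2, TGFB2, the pathway member YAP1 (0.74) and MYOF (0.51). The other genes of the list did not pass, and changes among them went both ways. RCAN1 did not pass without vehicle replicates 1, 2 or 3 or compression replicates 1, 2 or 3, each left out alone (adjusted p 0.0502 to 0.0991) and with gene span as an offset (adjusted p = 0.131). CREB5 did not pass without vehicle replicates 1, 2, 3 or 4 or compression replicates 1, 2 or 3, each left out alone (adjusted p 0.061 to 0.186), without the filter on low counts (adjusted p = 0.0706), with limma-voom (adjusted p = 0.052) and with gene span as an offset (adjusted p = 0.205). RND3 did not pass without vehicle replicates 1, 2 or 3 or compression replicates 1 or 2, each left out alone (adjusted p 0.0517 to 0.143). CORO1C did not pass without vehicle replicates 1, 2 or 3 or compression replicates 2 or 3, each left out alone (adjusted p 0.0554 to 0.0978), without the filter on low counts (adjusted p = 0.065) and with gene span as an offset (adjusted p = 0.104). PFN1 did not pass without vehicle replicates 2 or 3 or compression replicate 4, each left out alone (adjusted p 0.0618 to 0.131) and with gene span as an offset (adjusted p = 0.208).

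**Figure D3:**
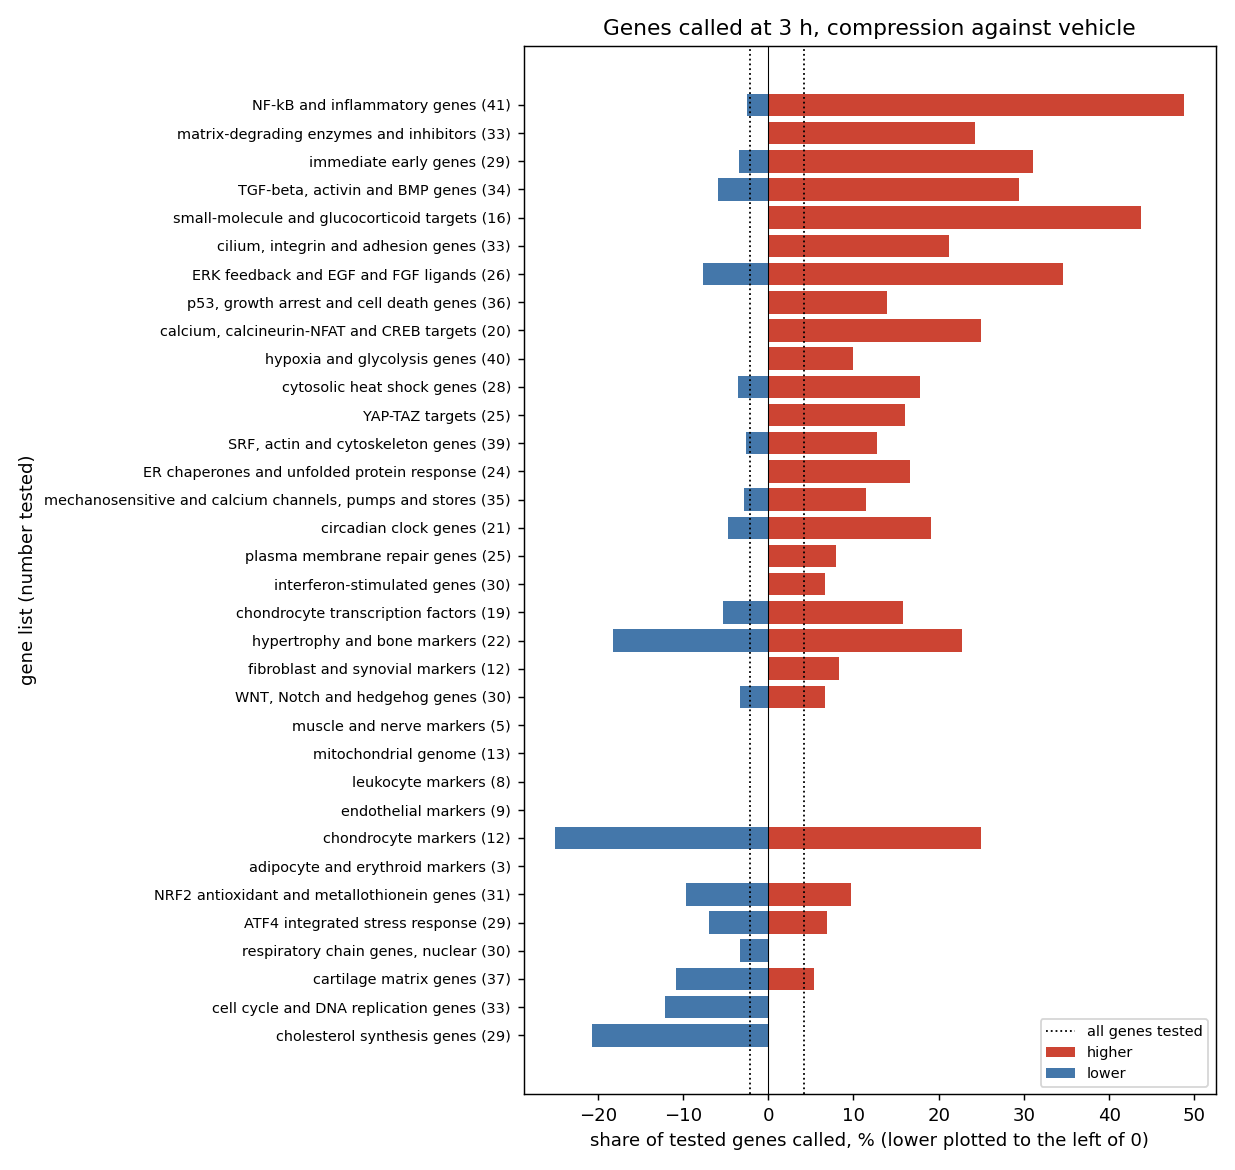
Bars give, for each gene list, the percent of tested genes that were higher (red) and lower (blue, drawn to the left) after compression at 3 h; dotted lines mark the 4.18% and 2.09% of all genes tested. The list of NF-kB and inflammatory genes has 20 of 41 tested genes higher. The lists were not matched to all genes tested by expression level.

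Of 33 tested genes of matrix-degrading enzymes and their inhibitors, 8 rose and 0 fell (median 0.182). ADAMTS1, a proteoglycan-cleaving metalloproteinase, measured 9.91, 10.3, 10.9 and 10.8 CPM in the vehicle libraries and 44.7, 40.3, 39.9 and 33.9 CPM in the compressed libraries (log2 fold change 1.92 ± 0.18 (SE), adjusted p = 1.96e-09). MMP3, stromelysin 1, measured 202, 211, 193 and 213 CPM in the vehicle libraries and 644, 617, 438 and 308 CPM in the compressed libraries (log2 fold change 1.29 ± 0.16 (SE), adjusted p = 3.03e-07). No line carried the symbol MMP1, and 13642 identifiers had no symbol, so MMP1 could not be assessed. Whether reads of these related neighbours were separated was not tested. The aggrecanase ADAMTS5 (0.96), the elastase MMP12 (1.10), the sheddase ADAM10 (0.63), the plasminogen activators PLAU (0.91) and PLAT (0.90) and the receptor PLAUR (0.47) also rose. TIMP3, an inhibitor of these enzymes, did not pass (5497 to 7034 CPM, adjusted p = 0.131), and passed without vehicle replicate 4 (log2 fold change 0.52, adjusted p = 0.0113), with the 8 libraries alone (adjusted p = 0.0439) and with the 12 non-transfected libraries (adjusted p = 0.0342). MMP12 did not pass without vehicle replicates 1 or 3 or compression replicates 1 or 3, each left out alone (adjusted p 0.0727 to 0.118). PLAT did not pass without vehicle replicates 1 or 2 or compression replicate 1, each left out alone (adjusted p 0.0522 to 0.0837).

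Cartilage matrix genes showed smaller changes, with 2 of 37 higher and 4 lower (median -0.077). COL2A1, the type II collagen of cartilage (chromosome 5, 78350131 to 78380893), measured 8115, 8360.0, 7579 and 5873 CPM in the vehicle libraries and 5624, 5574, 6132 and 4918 CPM in the compressed libraries (log2 fold change -0.43 ± 0.10 (SE), adjusted p = 0.00756). Vehicle replicate 4 lay within the range of the compressed libraries for this gene. COL11A2 (-0.48) and COL9A2 (-0.34), minor collagens of the same fibrils, and CNMD, the anti-angiogenic chondromodulin (-0.39), fell as well. HAPLN1, the link protein that ties aggrecan to hyaluronan (0.36), and CHSY1, a chondroitin synthase (0.57), rose. ACAN (1366 to 1317 CPM, -0.05), COMP (22870.0 to 19610.0 CPM, -0.22), FMOD (0.09), COL11A1 (0.16), COL9A1 (-0.40, adjusted p = 0.0839) and MATN3 (-0.16) did not pass. COL9A1 passed with DESeq2 (adjusted p = 0.0433), with the 8 libraries alone (adjusted p = 0.0195), with the 12 non-transfected libraries (adjusted p = 0.0167) and with gene span as an offset (adjusted p = 0.0233). COL2A1 did not pass without vehicle replicate 2 (adjusted p = 0.0599). COL9A2 did not pass without vehicle replicates 1, 2 or 3 or compression replicates 2 or 4, each left out alone (adjusted p 0.0519 to 0.132). CNMD did not pass without vehicle replicates 1, 2 or 3 or compression replicates 1, 2, 3 or 4, each left out alone (adjusted p 0.0688 to 0.142), without the filter on low counts (adjusted p = 0.0583) and with gene span as an offset (adjusted p = 0.0511). HAPLN1 did not pass without vehicle replicates 1 or 2 or compression replicate 4, each left out alone (adjusted p 0.0731 to 0.102).

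**Figure D4:**
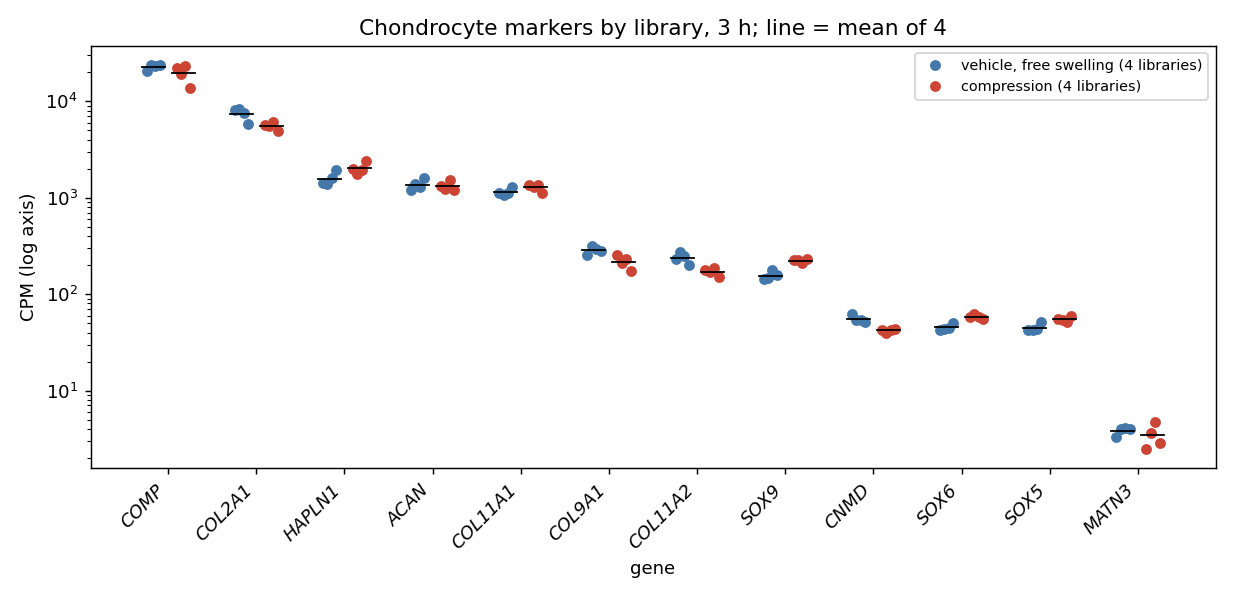
Points are single libraries (blue vehicle, red compression), lines are means of 4, and the y axis is CPM on a log scale, for the 12 chondrocyte markers. COL2A1 is at 5873 to 8360.0 CPM in vehicle and 4918 to 6132 CPM after compression, and the groups overlap.

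The transcription factors of the chondrocyte lineage were not uniform. SOX9, which drives type II collagen expression, rose: it measured 143, 146, 176 and 158 CPM in the vehicle libraries and 224, 225, 210.3 and 230.0 CPM in the compressed libraries (log2 fold change 0.51 ± 0.10 (SE), adjusted p = 0.0015). Its partner SOX6 rose (0.37), while SOX5 did not pass (0.30, adjusted p = 0.0618). SOX8 fell from a low level (2.23 to 1.15 CPM, -0.95) and RUNX1 rose (0.38). In all, 3 of 19 tested factors were higher and 1 lower (median 0.00753). SOX5 passed with DESeq2 (adjusted p = 0.0331), with the 8 libraries alone (adjusted p = 0.0449), with the 12 non-transfected libraries (adjusted p = 0.0482), with protein-coding genes only (adjusted p = 0.0492) and without vehicle replicate 4 (adjusted p = 0.0196). SOX6 did not pass without vehicle replicates 1, 2 or 3 or compression replicates 1, 2, 3 or 4, each left out alone (adjusted p 0.0616 to 0.14), without the filter on low counts (adjusted p = 0.0824) and with gene span as an offset (adjusted p = 0.172). SOX8 did not pass without vehicle replicate 2 or compression replicates 1 or 4, each left out alone (adjusted p 0.0705 to 0.0956) and without the filter on low counts (adjusted p = 0.0675). RUNX1 did not pass without vehicle replicates 1, 2 or 3 or compression replicate 3, each left out alone (adjusted p 0.0523 to 0.0975) and with gene span as an offset (adjusted p = 0.0646).

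Hypertrophy and bone markers went both ways, with 5 of 22 higher and 4 lower (median -0.0644). PTHLH, the parathyroid hormone-like ligand that holds back hypertrophy, measured 23.8, 24.98, 31.8 and 32.1 CPM in the vehicle libraries and 71.2, 57.8, 65.8 and 50.6 CPM in the compressed libraries (log2 fold change 1.12 ± 0.13 (SE), adjusted p = 1.02e-07), and IHH, the hedgehog ligand of prehypertrophic cells, fell (-0.80). MEF2C (0.55) and the secreted phosphoprotein SPP1 (0.48) rose. DLX5 (-1.04), the mineralisation phosphatase PHOSPHO1 (61.9 to 20.7 CPM, -1.58) and the bone factor SP7 (-0.71) fell. COL10A1, the collagen of hypertrophic cartilage (0.01, adjusted p = 0.99), and RUNX2 (0.09, adjusted p = 0.819) did not pass. SP7 did not pass without vehicle replicates 1 or 3 or compression replicates 1, 3 or 4, each left out alone (adjusted p 0.0544 to 0.117).

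The NRF2 and ATF4 lists held called genes in both directions. HMOX1, heme oxygenase 1, measured 542, 610.5, 565 and 425 CPM in the vehicle libraries and 169.9, 203, 208 and 159.5 CPM in the compressed libraries (log2 fold change -1.53 ± 0.13 (SE), adjusted p = 3.72e-10). CHAC1, a glutathione-degrading enzyme and ATF4 target, measured 33.1, 38.2, 38.6 and 32.2 CPM in the vehicle libraries and 15.2, 12.6, 15.4 and 11.4 CPM in the compressed libraries (log2 fold change -1.38 ± 0.12 (SE), adjusted p = 5.12e-10). In both, all 4 compressed libraries lay below all 4 vehicle libraries. Of 31 antioxidant and metallothionein genes of the NRF2 list, 3 rose and 3 fell (median -0.134). Thioredoxin reductase TXNRD1 (0.88) and the mitochondrial SOD2 (0.40) rose, and NQO1 fell (-0.41). Of 29 genes of the ATF4 list, 2 rose (PPP1R15B, 0.56, and CEBPG, 0.36) and 2 fell (CHAC1 and DDIT3, -0.65), while ATF4 did not pass (0.06). DDIT3 did not pass without vehicle replicates 1, 2 or 3 or compression replicates 1 or 2, each left out alone (adjusted p 0.0503 to 0.103) and with limma-voom (adjusted p = 0.0633). PPP1R15B did not pass without vehicle replicate 2 (adjusted p = 0.0726). CEBPG did not pass without vehicle replicate 1 (adjusted p = 0.0601). NQO1 did not pass with gene span as an offset (adjusted p = 0.115).

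Of 24 genes of the endoplasmic reticulum stress list, 4 rose and 0 fell (median 0.101): SEL1L (0.54), ATF6 (0.49), EIF2AK3 (0.45) and EDEM1 (0.35). The chaperone HSPA5 did not pass (0.10). Of 28 cytosolic heat shock genes, 5 rose and 1 fell (median 0.056). DNAJB1 (0.49) and HSPH1 (0.42) were among those that rose, and HSPA8 did not pass (0.16) but passed with gene span as an offset (log2 fold change 0.29, adjusted p = 0.00737). Of 36 p53 and cell death genes, 5 rose and 0 fell (median 0.174). They were the death receptor FAS (0.67), ZMAT3 (0.56), MLKL (0.36), the cell cycle inhibitor CDKN1A (0.35) and BNIP3L (0.30). SESN2 did not pass (-0.43). SEL1L did not pass without vehicle replicates 1 or 2, each left out alone (adjusted p 0.0517 to 0.0577). EIF2AK3 did not pass without vehicle replicates 1, 2 or 3 or compression replicates 1 or 2, each left out alone (adjusted p 0.0545 to 0.109), without the filter on low counts (adjusted p = 0.0509) and with gene span as an offset (adjusted p = 0.0859). EDEM1 did not pass without vehicle replicates 1, 2 or 3 or compression replicates 1, 2, 3 or 4, each left out alone (adjusted p 0.06 to 0.245) and without the filter on low counts (adjusted p = 0.09). ZMAT3 did not pass without vehicle replicates 1 or 2 or compression replicates 1, 2 or 3, each left out alone (adjusted p 0.0503 to 0.161) and without the filter on low counts (adjusted p = 0.0512). MLKL did not pass without vehicle replicates 1, 2 or 3 or compression replicate 4, each left out alone (adjusted p 0.0542 to 0.142) and without the filter on low counts (adjusted p = 0.0506). CDKN1A did not pass without vehicle replicate 1 (adjusted p = 0.0645). BNIP3L did not pass without vehicle replicates 1, 2 or 3 or compression replicates 2, 3 or 4, each left out alone (adjusted p 0.0501 to 0.218) and without the filter on low counts (adjusted p = 0.0845).

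The genes SLC2A3, which encodes a glucose transporter (11.3, 12.3, 10.98 and 20.5 CPM in the vehicle libraries and 30.0, 30.4, 29.9 and 30.4 CPM in the compressed libraries; log2 fold change 1.13 ± 0.18 (SE), adjusted p = 3.35e-05), hexokinase HK2 (88.9 to 178 CPM, 1.00), PFKFB4 (0.86) and the demethylase KDM3A (0.56) were the 4 of 40 hypoxia and glycolysis genes that rose, and 0 fell (median 0.0356). ENO1 did not pass (0.01). Of 29 cholesterol synthesis genes, 0 rose and 6 fell (median -0.133). They included INSIG1, the sterol sensor (100.3, 115, 102 and 93.0 CPM in the vehicle libraries and 52.3, 55.0, 54.4 and 45.8 CPM in the compressed libraries; log2 fold change -0.98 ± 0.19 (SE), adjusted p = 0.000756), and the mevalonate enzymes MVK (-0.64), MVD (-0.87), IDI1 (-0.51) and FDFT1 (-0.30). HMGCS1 did not pass (-0.12). Of 33 cell cycle genes, 0 rose and 4 fell (median -0.245): cyclin D1 CCND1 (193 to 118 CPM, -0.70), the kinases AURKB (-0.81) and PLK1 (-0.95), and RRM2 (-0.55), a ribonucleotide reductase subunit. CDK4 did not pass (-0.23). KDM3A did not pass without vehicle replicates 1 or 2 or compression replicates 1, 2 or 3, each left out alone (adjusted p 0.0549 to 0.0975). MVD did not pass without vehicle replicates 1, 2 or 3 or compression replicates 2, 3 or 4, each left out alone (adjusted p 0.0561 to 0.119), with limma-voom (adjusted p = 0.109) and with gene span as an offset (adjusted p = 0.065). CCND1 did not pass without vehicle replicate 2 or compression replicate 4, each left out alone (adjusted p 0.0852 to 0.0867). PLK1 did not pass without vehicle replicates 1, 2 or 3 or compression replicates 1, 2, 3 or 4, each left out alone (adjusted p 0.0524 to 0.349), with the replicate block (adjusted p = 0.0519), with the 8 libraries alone (adjusted p = 0.0574), with limma-voom (adjusted p = 0.284), with gene span as an offset (adjusted p = 0.0715) and with the 12 non-transfected libraries (adjusted p = 0.0772). IDI1 did not pass with gene span as an offset (adjusted p = 0.0827).

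Small-molecule and glucocorticoid targets were higher in 7 of 16 cases and lower in 0 (median 0.546). The other genes of this mixed list, glucocorticoid targets among them, did not pass. KLF9, a glucocorticoid target (2.44, 1.92, 2.33 and 2.52 CPM in the vehicle libraries and 6.41, 6.78, 6.57 and 7.36 CPM in the compressed libraries; log2 fold change 1.55 ± 0.22 (SE), adjusted p = 6.75e-06), SGK1 (0.67) and TIPARP (1.12) rose, as did CYP1A1 (0.686 to 2.31 CPM, 1.75), whose libraries overlapped between the groups. Clock genes rose in 4 of 21 cases and fell in 1 (median 0.174): RORA (0.76), NR1D1 (0.72), PER2 (0.63) and BHLHE40 (0.47) rose. Of 33 cilium, integrin and adhesion genes, 7 rose and 0 fell (median 0.194), including the hyaluronan receptor CD44 (513 to 813 CPM, 0.66). Of 30 interferon-stimulated genes 2 rose and 0 fell, and of 25 plasma membrane repair genes 2 rose and 0 fell. Of 30 nuclear respiratory chain genes 0 rose and 1 fell (median -0.135), and none of the 13 genes of the mitochondrial genome passed. Of 30 genes of WNT, Notch and hedgehog signalling 2 rose and 1 fell, and the Notch target HEY2 rose (1.00). CYP1A1 did not pass without vehicle replicates 1, 2 or 4 or compression replicates 1 or 4, each left out alone (adjusted p 0.0741 to 0.199), with the replicate block (adjusted p = 0.0605), with the 8 libraries alone (adjusted p = 0.0567), with limma-voom (adjusted p = 0.228) and with the 12 non-transfected libraries (adjusted p = 0.0763). NR1D1 did not pass without vehicle replicates 2 or 3 or compression replicate 3, each left out alone (adjusted p 0.0606 to 0.109). PER2 did not pass without vehicle replicates 1 or 3 or compression replicates 1, 2 or 3, each left out alone (adjusted p 0.0651 to 0.121).

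Of 35 channel, pump and store genes, 4 rose and 1 fell (median 0.0729). Connexin 43 GJA1 (0.58), TRPM7 (0.52) and the calcium pumps ATP2B1 (0.38) and ATP2B4 (0.42) rose, and polycystin PKD1 (-1.03) fell from a low level. PIEZO1 measured 5.69, 6.65, 5.48 and 4.83 CPM in the vehicle libraries and 3.84, 4.71, 5.53 and 3.16 CPM in the compressed libraries (log2 fold change -0.39 ± 0.20 (SE), adjusted p = 0.275). PIEZO2 (-0.15, adjusted p = 0.721) and TRPV4 (0.03, adjusted p = 0.947) did not pass either. GJA1 did not pass without vehicle replicates 1 or 2, each left out alone (adjusted p 0.06 to 0.0613). TRPM7 did not pass without vehicle replicate 2 or compression replicate 4, each left out alone (adjusted p 0.0532 to 0.0678). PKD1 did not pass without vehicle replicates 2 or 3 or compression replicate 3, each left out alone (adjusted p 0.0624 to 0.107), with the 8 libraries alone (adjusted p = 0.0639), with limma-voom (adjusted p = 0.0607) and with the 12 non-transfected libraries (adjusted p = 0.0515).

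Several of the genes with the smallest p belonged to none of the lists. RGCC, a regulator of the cell cycle, measured 35.3, 34.4, 39.9 and 45.7 CPM in the vehicle libraries and 102, 91.0, 82.7 and 87.2 CPM in the compressed libraries (log2 fold change 1.22 ± 0.09 (SE), adjusted p = 1.1e-11). GPRC5A, an orphan receptor (249 to 563 CPM, 1.18), TSC22D1 (384 to 856 CPM, 1.16) and the transcription repressor HBP1 (32.6 to 66.0 CPM, 1.02) rose. HMGA2, a chromatin protein (36.9 to 101.4 CPM, 1.46), HCAR2 (1.42), the arginine transporter SLC7A2 (0.89), UAP1 (0.84), TLE3 (0.80) and KLF13 (0.64) also rose. Large falls outside the lists included TEDC2 (-1.92), DFFB (-1.58), AHNAK2 (-1.56), the ephrin receptor EPHB3 (12.7 to 4.53 CPM, -1.48), MYL10 (-1.39), C3orf18 (-1.35) and SETD1B (-1.27). SEPTIN5 (172 to 85.5 CPM, -1.01), the fatty acid carrier FABP3 (-0.99), the fibrillar collagen COL27A1 (76.5, 86.4, 87.2 and 87.0 CPM in the vehicle libraries and 46.5, 45.6, 57.4 and 56.0 CPM in the compressed libraries; -0.71) and the histone genes H1-3 (-0.39) and H2AC6 (-0.39) fell as well. H2AC6 did not pass without vehicle replicate 2 or compression replicates 1 or 4, each left out alone (adjusted p 0.0544 to 0.086).

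The same compression was applied to cells that had received siRNA. In siNTC constructs 167 genes were called (0.911%) and in constructs labelled siPIEZO1 110 (0.6%), and the latter count was 2 when only those 2 groups were fitted. The siNTC count was 62, 80 and 93 without vehicle replicates 2, 3 and 4 and 85, 98 and 64 without compression replicates 2, 3 and 4. Of the siNTC calls 64.1% were higher, against 45.5% without the filter on low counts, 51.2% with DESeq2 and 46% with those 2 groups alone. The siPIEZO1 count was 47 without vehicle replicate 3 and 71, 25 and 28 without compression replicates 2, 3 and 4. PIEZO1 itself was 4.22 to 5.18 CPM in vehicle libraries labelled siPIEZO1, 3.71 to 6.99 CPM in siNTC vehicle and 4.83 to 6.65 CPM in non-transfected vehicle libraries, ranges that overlap. Of the 1149 genes, 99 were called in the same direction in siNTC (8.62% of the 1149 and 59.3% of the siNTC calls) and 68 in the libraries labelled siPIEZO1 (5.92% and 61.8%). Changes of 90.5% and 90.1% of the 1149 had the same sign there, with median log2 fold changes of 0.217 and 0.232 for the genes raised in non-transfected constructs, against 0.557 there. The non-transfected median comes from the genes chosen by that test. The share of all genes tested with the same sign was not computed. All genes tested had a median log2 fold change of 2.87e-05 in siNTC and -0.0101 in siPIEZO1. Among genes called in all 3 were CHAC1 (-1.63 and -1.24), ID3 (-0.70 and -0.75), BMP2 (1.18 and 0.69), DUSP4 (1.04 and 0.79), TXNRD1 (0.66 and 0.61), TLE3 (0.61 and 0.84) and KLF13 (0.58 and 0.65), in log2 fold changes.

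The difference between responses was tested directly. Between siNTC and non-transfected constructs 17 genes differed (0.0927%), and between constructs labelled siPIEZO1 and non-transfected ones 34 (0.185%). PTGS2 rose less after siNTC (difference -1.53 ± 0.25 on the log2 scale, adjusted p = 0.0084) and after siPIEZO1 (difference -1.53 ± 0.25, adjusted p = 0.00173). Its vehicle level was 56.7 ± 10.5 CPM (mean ± SD, n = 4) without siRNA, 124 ± 6.56 CPM after siNTC and 102 ± 19.0 CPM after siPIEZO1, and its compressed levels were 347 ± 128 CPM, 263 ± 34.5 CPM and 215 ± 39.0 CPM. HMOX1 had compressed levels of 185 ± 24.0 CPM, 185 ± 31.0 CPM and 205 ± 34.3 CPM in the same order, and vehicle levels of 536 ± 79.2 CPM, 253 ± 22.2 CPM and 282 ± 20.9 CPM. Its fall was smaller by 1.08 after siNTC (adjusted p = 0.0084) and 1.08 after siPIEZO1 (adjusted p = 0.00234). NR4A2 differed by -1.63 and -1.98, and SPRY2 by -1.08 and -1.18. The adjusted p values were 0.0084 and 0.000203 for NR4A2 and 0.0277 and 0.00758 for SPRY2. The siNTC count was 5 without non-transfected vehicle replicate 2, 48 without vehicle replicate 4, 8 and 10 without compression replicates 1 and 2 and 11 without either of vehicle replicates 1 and 3. It was 10 and 8 without siNTC vehicle replicates 1 and 4 and 9 without siNTC compression replicate 4. The siPIEZO1 count was 17 and 63 without non-transfected vehicle replicates 2 and 4 and 15 and 22 without compression replicates 1 and 2. It was 76 and 18 without siPIEZO1 vehicle replicates 1 and 4 and 19 and 16 without siPIEZO1 compression replicates 1 and 2.

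At 9 h 27.2% of the 1149 changes kept their sign, and the share among all genes tested was not computed. In non-transfected constructs 441 genes were called at 9 h (2.18% of 20202), of which 21 were among the 1149 in the same direction and 81 in the opposite one. The genes raised at 3 h had a median log2 fold change of -0.11 at 9 h, and those lowered at 3 h had 0.203. The difference of the responses was called for 1861 genes (9.21%), or 1205 without vehicle replicate 2 at 3 h. At 9 h SPRY2 had a log2 fold change of -0.65 (difference -2.47 ± 0.21, adjusted p = 1.36e-13) and HMGA2 of -0.65 (difference -2.12), and both fell. NR4A2 (-0.47 at 9 h, difference -3.02) and PTGS2 (0.35, difference -2.27) did not pass at 9 h, while their differences did. ID3 changed by 0.41 (difference 1.54), and its vehicle level was 72.4 to 96.0 CPM at 9 h against 428 to 552 CPM at 3 h. SEPTIN5 (0.89), COL27A1 (0.68) and COL11A2 (0.40) were higher at 9 h. AMCF-II (1.63), MMP3 (0.69), TNFRSF11B (0.67), IL1R2 (1.05) and SOX6 (0.57) were called higher at both times.

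**Figure D5:**
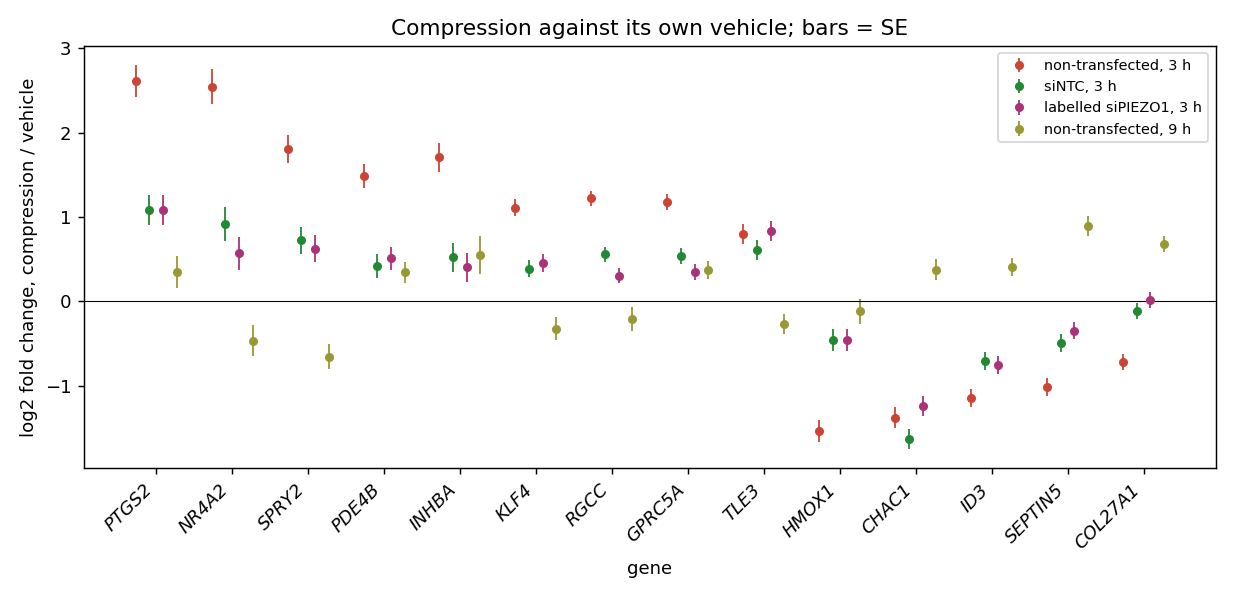
Points are log2 fold changes of compression against its own vehicle, with SE bars, for 14 genes in non-transfected (3 h and 9 h), siNTC and siPIEZO1-labelled constructs. PTGS2 is at 2.61 in non-transfected constructs at 3 h and at 1.08 in both siRNA groups.

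Yoda1 was compared with compression directly, since both were set against the same vehicle libraries. In that comparison 792 genes differed (4.32%), 326 higher (1.78%) and 466 lower (2.54%) with compression. The count was 452, 475 and 295 without compression replicates 1, 2 and 4 and 442, 476 and 468 without Yoda1 replicates 1, 3 and 4. Without compression replicate 4 the balance turned, with 167 higher and 128 lower. PTGS2 was 347 ± 128 CPM with compression and 118 ± 9.05 CPM with Yoda1 (log2 difference 1.55 ± 0.18, adjusted p = 8.1e-07). HMOX1 was 185 ± 24.0 CPM against 583 ± 75.1 CPM (difference -1.66), and CHAC1 was 13.7 ± 1.97 CPM against 35.5 ± 1.67 CPM (difference -1.38). The chemokine genes AMCF-II (3.09), CXCL8 (2.02) and CCL2 (1.84) were higher with compression. RCAN1 (-0.51), FOS (-0.69) and EGR1 (-1.02) were lower with compression than with Yoda1. SMAD3 (0.79), SOX9 (0.52) and YAP1 (0.60) were higher, and the cholesterol genes INSIG1 (-1.22), MVK (-0.63) and MVD (-1.29) were lower.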

How the data were processed

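RNA from 120 pig chondrocyte constructs was sequenced, and the 36 libraries of the PIEZO1 experiment at 3 h, 9 groups of 4, entered the fit. The deposited table holds raw read counts per gene. Per the submitters' processing notes, Trim Galore, STAR and HTSeq were used with the Sscrofa11.1 build. Tool versions and the strand setting: not given in the sources used here. Per the labels, libraries were made from 10 ng of RNA with a low-input cDNA kit. After removal of 481 identical repeated lines, 31907 gene identifiers remained. Symbols came from the table (15408), a gene name table (809) and RefSeq (743).

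Genes were filtered (filterByExpr, minimum count 10), scaled by TMM and tested with edgeR 4.0.16 (R 4.3.3), which left 18330 genes, 27 residual degrees of freedom and a biological coefficient of variation of 0.282. Adjusted p values are Benjamini-Hochberg over all genes tested, with a threshold of 0.05. Fits of 9 h against 3 h used 72 libraries and 20202 genes. DESeq2 1.42.0 and limma 3.58.1 served as alternatives. An offset for gene span and a fit of the 12 non-transfected libraries were added after the data were seen. On simulated counts 80% of genes changed by 1 on the log2 scale were recovered, 36% of those changed by 0.5, and 3.8% of calls were unchanged genes (17779 genes in that fit). These counts were drawn independently from the fitted spread, with changes set in a small sample of genes with a mean above 1 CPM. The recovery does not cover genes below that level. The simulated counts held no trend with gene span, no difference in ribosomal share and no outlying library. The 3.8% therefore does not cover errors from those sources. All 12 pairs of replicates within the 2 groups differed by more than sampling noise (chi-square per degree of freedom 12.5 to 76.3).

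Members and gene lists were chosen with earlier results of these data known. The rule for named genes took the 12 largest changes in each direction with separated libraries, the 10 smallest p, up to 4 called and 2 uncalled members of each list, the chondrocyte markers and channels, and 4 genes in each direction from each other comparison. It named 209 genes, of which 146 are printed, and 27 genes outside it are printed too; which to print was decided after their values were seen. A few members of the lists are counted but not reported here by name.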

Additional observations from a re-analysis of the deposited data

Results flagged for a closer look

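In 25 of 354 groups of 4 libraries examined, 1 library stood far from the other 3 by Dixon's test; chance flags about 1 in 20. Values are in CPM. In compression replicate 4 the genes were DUSP5 (8.65), DUSP6 (7.62), CDK4 (269), KLF13 (49.2), CDKN1A (245), ATF6 (115) and BNIP3L (298). In vehicle replicate 4 the genes were RCAN1 (295), MYOF (15.5), SOX5 (51.2), MEF2C (66.7), PFKFB4 (67.1), SLC2A3 (20.5) and PDGFRA (160). In vehicle replicate 1 the genes were COMP (20600), MATN3 (3.33) and COL27A1 (76.5). In compression replicate 3 the genes were ZFP36 (8.81) and SMAD3 (43.1). In vehicle replicate 2 the genes were EDEM1 (24.4) and ZMAT3 (6.21). In vehicle replicate 3 it was CCL20 (3.86). In compression replicate 1 it was UAP1 (311). In compression replicate 2 it was TPM1 (1270). The share of counts from ribosomal RNA genes was flagged in compression replicate 4 (0.196%).

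The response to compression differed between groups by the test of the difference itself. Between siNTC and non-transfected constructs 17 genes differed, among them, in log2 units, HMOX1 (1.08), SETD1B (1.63), FABP3 (1.09), SOCS3 (1.41), PTGS2 (-1.53), NR4A2 (-1.63), TSC22D1 (-0.816) and PDE4B (-1.07). Between constructs labelled siPIEZO1 and non-transfected ones 34 genes differed, among them C3orf18 (1.36), HMOX1 (1.08), EPHB3 (1.45), COL27A1 (0.728), HBP1 (-0.939), RGCC (-0.918), NR4A2 (-1.98) and GPRC5A (-0.833). Between 9 h and 3 h 1861 genes differed, among them SEPTIN5 (1.9), ID3 (1.54), COL27A1 (1.38), CHAC1 (1.75), SPRY2 (-2.47), NR4A2 (-3.02), HBP1 (-1.28) and HMGA2 (-2.12).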

How the results depend on the processing

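The 1149 calls became 1151 with RLE size factors, 905 without the filter on low counts, 1215 with the replicate block, 1571 with DESeq2, 1551 with the 8 libraries alone, 1047 with limma-voom, 1223 with protein-coding genes, 1548 with the 12 non-transfected libraries, 1009 with gene span as an offset and 183 with at least 2-fold change. Leaving out 1 library gave 526 to 1583. DESeq2 gave 391 calls for siNTC, 275 for siPIEZO1, 57 and 96 for their differences from the non-transfected response and 1315 for compression against Yoda1. Fits of the contrast's own groups gave 309, 2, 28, 9 and 1625 in that order. Leaving out 1 library gave 62 to 189, 25 to 117, 5 to 48, 15 to 76 and 295 to 616 in that order, and 1205 to 2165 for 9 h against 3 h. The cause of these shifts was not tested.

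Replicate numbers did not pair the libraries: same-numbered libraries had correlations of -0.0578 to 0.0189 in their deviations, and other pairs -0.155 to 0.144. The replicate block gave 161, 117, 17, 29, 2095 and 917 calls for siNTC, siPIEZO1, their differences, 9 h against 3 h and compression against Yoda1.

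Of the 161 named or printed genes that passed, 108 passed in every setting run, 53 lost the call in some setting (27 of them in one other than leaving out a library) and 0 changed direction. Of 75 that did not pass, 14 passed in some setting and 26 changed direction. Among those printed, EGR1 was -0.0026 without the filter and from -0.11 to 0.26 when leaving out 1 library; TRPV4 was -0.012 with the span offset and from -0.050 to 0.094 when leaving out 1 library. PTGES was 0.043 with the span offset and from -0.094 to 0.0098. TPM1 was 0.0011 with the 8 libraries, 0.0034 with limma-voom, 0.0029 with the 12 libraries and from -0.093 to 0.066. COL10A1 was -0.0072 with the replicate block, -0.017 with limma-voom and from -0.13 to 0.089. RUNX2 was -0.015 with the span offset. When leaving out 1 library ACAN ran from -0.13 to 0.032 and ENO1 from -0.031 to 0.031. Genes of the other comparisons were not recomputed one by one. Changes of 0.5 on the log2 scale are near the limit of this depth and spread.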
